A study of Mus musculus with 58 samples.

Results

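The purinergic group described here comprised 7 genes, P2ry12, P2ry13, P2ry6, P2rx4, P2rx7, Adora3 and Entpd1, which were taken by symbol from the count tables. All 7 were listed in each table, among 24940 genes in the age series, 10277 in the wild-type antisense oligonucleotide table and 10589 in the SgshKO antisense oligonucleotide table, and all 7 passed the filter on low counts. The study measured polyA RNA in microglia, the resident macrophages of the brain, sorted from the forebrain of C57BL/6 mice as CD11b+, CD45low and CX3CR1+ cells. SgshKO mice lack the lysosomal sulfatase Sgsh, which takes part in heparan sulfate breakdown. The 58 libraries formed 13 groups. The age series held 3 WT and 4 SgshKO libraries at 3 weeks, 2 and 2 at 4 months, and 4 and 7 at 8 months, with no treatment named. Antisense oligonucleotides (ASOs), short nucleic acids that lower their target transcript, had been injected once into the cerebral ventricles 14 days before the cells were collected. WT mice received PBS, a control ASO called ntc, or single ASOs directed at Mitf, at Tfeb or at Tfe3 (4 libraries each), and SgshKO mice received ntc or the Mitf and Tfe3 ASOs together (8 libraries each). The labels give no sex, no age for the mice of the ASO sets and no kind of Sgsh mutation. They name 2 RNA isolation kits without saying which library had which. The labels name separate replicates without saying that they came from separate animals, so the p-values measure the spread between these libraries.

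Extracellular ATP and its breakdown products are signals that microglia read through purinergic receptors. P2X receptors are ion channels opened by ATP, P2Y receptors are G protein-coupled receptors for nucleotides, and adenosine receptors respond to the nucleoside that remains after dephosphorylation. Entpd1 (CD39) is the surface enzyme that removes phosphates from ATP and ADP, and so sets which of these receptors is engaged. P2ry12 and P2ry13 are ADP receptors, with P2ry12 needed for the extension of microglial processes towards injury, and P2ry6 is a UDP receptor linked to phagocytosis. P2rx4 is an ATP-gated channel found largely on lysosomes and known for its part in microglial activation in pain. P2rx7 is the ATP-gated channel that triggers the inflammasome, and Adora3 is the A3 adenosine receptor. Mitf, Tfeb and Tfe3 encode related transcription factors of lysosomal and autophagy genes, which bind the E-box CACGTG.

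The members lie on 4 chromosomes. On chromosome 3, P2ry13 (chr3:59207894-59210882) and P2ry12 (chr3:59216271-59262985) are on the minus strand 5389 bases apart in the positions the authors' table gives (mm10). P2rx7 (chr5:122643911-122684289) and P2rx4 (chr5:122707544-122729738) are on the plus strand of chromosome 5, 23255 bases apart. P2ry6 is at chr7:100937634-100964366 on the minus strand, Adora3 at chr3:105904421-105908928 on the plus strand and Entpd1 at chr19:40659770-40741602 on the plus strand. The 250 bases before the start are shown for P2ry12, P2ry13 and P2rx4, read on the gene's strand from RefSeq (GRCm38.p6), because P2ry12 and P2ry13 are neighbours that fell together and P2rx4 is the member that rose. These windows are chr3:59262986-59263235 for P2ry12, chr3:59210883-59211132 for P2ry13 and chr5:122707294-122707543 for P2rx4. Capitals mark the stretch CACGTGA, which holds CACGTG and, read on the opposite strand, the longer TCACGTG.
P2ry12: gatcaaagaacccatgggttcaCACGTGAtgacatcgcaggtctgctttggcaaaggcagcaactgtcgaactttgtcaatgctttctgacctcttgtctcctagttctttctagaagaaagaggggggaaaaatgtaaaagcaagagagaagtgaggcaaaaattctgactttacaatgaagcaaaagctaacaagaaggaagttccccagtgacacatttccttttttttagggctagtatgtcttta
P2ry13: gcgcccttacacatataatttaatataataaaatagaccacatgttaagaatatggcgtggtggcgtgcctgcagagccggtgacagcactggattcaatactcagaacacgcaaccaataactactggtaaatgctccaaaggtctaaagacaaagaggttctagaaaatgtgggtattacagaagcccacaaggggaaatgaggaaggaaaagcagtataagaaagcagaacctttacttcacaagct
P2rx4: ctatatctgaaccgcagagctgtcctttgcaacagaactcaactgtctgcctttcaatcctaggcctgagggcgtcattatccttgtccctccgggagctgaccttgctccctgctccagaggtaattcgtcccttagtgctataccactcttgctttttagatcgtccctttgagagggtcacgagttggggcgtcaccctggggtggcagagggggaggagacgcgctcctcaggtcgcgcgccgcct

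RefSeq promoter entries were matched for 6 of the 7 members, P2ry6 being without one. The windows searched ran from 250 bases before to 50 after the start, both strands were read, and the motif letters were chosen after the sequences had partly been seen. CACGTG was in the window of P2ry12, with TCACGTG at the same place, 228 bases before the start. The share of all 32851 windows with CACGTG was 7.15%, and with TCACGTG 3.77%. GAGGAAGT, a form of the site of the macrophage factor PU.1, was in the Adora3 window 30 bases before the start and in 1 of the P2rx7 windows, against 3.20% of all windows. These letters were not in the windows of P2ry13, P2rx4 and Entpd1.

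Libraries of the age series held between 8191508 and 27106584 counts, those from ASO-treated WT mice between 14372015 and 30378870, and those from ASO-treated SgshKO mice between 12517838 and 30431437. The lowest count of a member in any library of the age series was 500, for P2rx4 at 4 months. Sgsh transcript was at 14.9 to 23.4 CPM (counts scaled to library size) in SgshKO against 20.3 to 25.9 in WT at 3 weeks, 22.9 to 30.3 against 30.7 to 39.4 at 4 months, and 20.1 to 34.7 against 31.9 to 59.2 at 8 months. The sources used here do not say which stretch of Sgsh is altered. Among ASO groups, the targets fell to 3.56% (Mitf), 10.6% (Tfeb) and 19.2% (Tfe3) of ntc in WT, and to 20.9% (Mitf) and 47.3% (Tfe3) in SgshKO. Microglia markers were high throughout, with 10 genes summing to 30284 CPM or more in every library of the age series. Neutrophil markers stood apart: their 11 genes summed to 0.932 to 7.33 CPM in WT of any age, but to 2809 and 13938 in SgshKO at 4 months and between 407 and 5488 at 8 months. Mitf itself was higher in SgshKO at 3 weeks (log2 0.47 ± 0.11 SE, edgeR adjusted p = 0.00582) and at 4 months (log2 0.61 ± 0.14, adjusted p = 0.00344). At 8 months it was higher by 0.84 ± 0.09 on the log2 scale (edgeR adjusted p = 5.70e-08).

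The members span a wide range of levels. In TPM (transcript levels scaled by length and depth), the unit that the authors deposited for the age series, P2ry12 in WT at 3 weeks was at 4593 ± 363 (SD, n = 3), P2ry13 at 1188 ± 123 and Entpd1 at 408 ± 12.8. Below them came P2ry6 at 306 ± 32.7, P2rx7 at 149 ± 3.87, Adora3 at 108 ± 3.54 and P2rx4 at 33.7 ± 1.38. This order held in 5 of the 6 groups, and no 2 neighbours in it overlapped between libraries, except P2rx7 and Adora3 in SgshKO at 4 months. In SgshKO at 8 months P2rx4, at 86.3 ± 6.59 TPM (n = 7), stood above Adora3, at 69.0 ± 7.98, with ranges that overlapped. The TPM table counts P2ry12 and P2rx7 on other transcripts than the count table (2356 against 2550 bases, and 2553 against 4921), and counts per kilobase gave the members the same order as TPM in each of the 6 groups.

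The comparison of SgshKO with WT at each age asks how loss of the lysosomal enzyme bears on these genes. P2rx4 was higher in SgshKO at all 3 ages, while the P2Y receptors, the adenosine receptor and Entpd1 were lower at 8 months. At 3 weeks 1 of 7 members, P2rx4, was called in edgeR's quasi-likelihood test (Benjamini-Hochberg adjusted p under 0.05), where 9.03% of all 14309 genes tested were called. At 4 months 4 members were called, 1 higher and 3 lower, with 19.5% of all genes called, 10.3% higher and 9.26% lower. At 8 months 6 were called, 1 higher and 5 lower, with 40.5% of all genes called, 21.6% higher and 18.9% lower. The libraries of the genotypes did not overlap for 2 members at 3 weeks, 6 at 4 months and 5 at 8 months, beside 22.5%, 58.1% and 25.2% of all genes. The median log2 fold change of the 7 members at 8 months was -0.37, beside 0.02 over all genes tested.

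**Figure D1:**
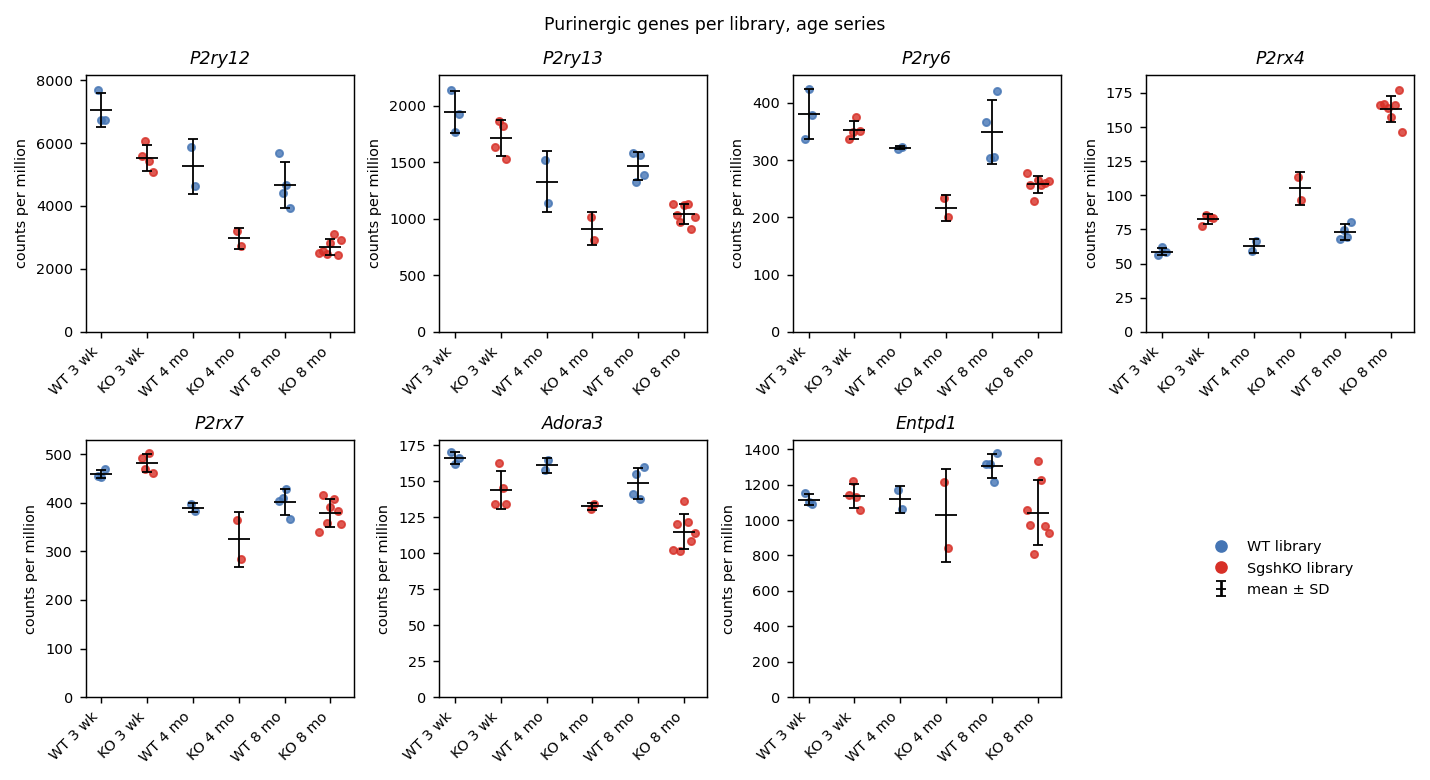
CPM of each member (y axis, a separate linear scale from 0 per gene) in every library of the age series, by genotype and age (x axis), with points for libraries and bars for mean ± SD. P2rx4 in SgshKO at 8 months lies at 146 to 177 CPM, above all WT libraries, while P2ry12 in the same libraries lies at 2452 to 3122, below all WT libraries.

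P2rx4 was the member with the largest change at 8 months. At 3 weeks its level was 56.1, 61.8 and 58.6 CPM in WT and 77.8, 85.5, 84.3 and 83.2 in SgshKO. At 4 months it was 59.1 and 66.6 in WT and 114 and 96.6 in SgshKO. At 8 months it was 67.8, 74.9, 69.6 and 80.7 in WT, and in SgshKO 146 at the lowest, 166 at the median and 177 at the highest. Every SgshKO library thus lay above every WT library of its age. The fold change was 1.41 at 3 weeks (log2 0.49 ± 0.08 SE, edgeR adjusted p = 0.000275), 1.67 at 4 months (log2 0.74 ± 0.11, adjusted p = 3.66e-05) and 2.23 at 8 months (log2 1.16 ± 0.07, adjusted p = 2.95e-12).

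The rise of P2rx4 was larger at 8 months than at 3 weeks. The difference between the genotype effects at those ages was 0.67 ± 0.11 on the log2 scale (edgeR interaction term, adjusted p = 0.000196), and P2rx4 was the 1 member called in that comparison, where 9.25% of all genes were. For P2ry12 the same difference was -0.45 ± 0.14 (adjusted p = 0.0538), which missed the threshold. Its adjusted p ran from 0.0114 to 0.134 when single libraries were left out, and it passed under DESeq2, without the filter and in TPM. No member was called between the genotype effects at 4 months and 3 weeks (2.52% of all genes; 3 members and 16.2% of genes at an unadjusted p under 0.05) or at 8 and 4 months (0.391%; 1 member and 11.5% of genes at an unadjusted p under 0.05).

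P2ry12, the most abundant member, took up 0.662% to 0.760% of all counts in WT at 3 weeks and 0.245% to 0.310% in SgshKO at 8 months. At 8 months its level was 5677, 4417, 4657 and 3926 CPM in WT, and in SgshKO it ran from 2452 through a median of 2558 to 3122. The groups did not overlap, as was so at 4 months, with 5877 and 4640 in WT and 3213 and 2723 in SgshKO. P2ry12 fell by 42.3% at 8 months (log2 -0.79 ± 0.09 SE, edgeR adjusted p = 1.18e-07) and by 43.6% at 4 months (log2 -0.83 ± 0.15, adjusted p = 0.000249). At 3 weeks the values were 7675, 6736 and 6738 CPM in WT and 5574, 6073, 5422 and 5065 in SgshKO, also without overlap. That difference, -0.35 ± 0.11 on the log2 scale, had an adjusted p of 0.05004 in edgeR and was not called, but it was called with DESeq2, with its size factors in edgeR, without the filter, in TPM, in a fit of the 3-week libraries alone and without SgshKO replicate 2.

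P2ry13, the other ADP receptor and the neighbour of P2ry12, moved in the same direction with smaller size. At 8 months it was at 1582, 1329.9, 1563 and 1391 CPM in WT, and in SgshKO at 910.2 at the lowest, 1034 at the median and 1133 at the highest, with no overlap. It fell by 28.8% (log2 -0.49 ± 0.09 SE, adjusted p = 8.19e-05 in edgeR). At 4 months it was lower by -0.54 ± 0.14 on the log2 scale (adjusted p = 0.00896), with 1519.7 and 1137 CPM in WT and 1019 and 809.97 in SgshKO. That call was lost without WT replicate 1 or without SgshKO replicate 2, with adjusted p up to 0.260, and in a fit of the 4-month libraries alone (0.0688).

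P2ry6, the UDP receptor, was at 366, 304, 305 and 422 CPM in WT at 8 months and at 228 to 277 in SgshKO, with a median of 261, and the groups did not overlap. It fell by 26.0% (log2 -0.43 ± 0.08 SE, edgeR adjusted p = 0.000150). At 4 months it fell by 32.7% (log2 -0.57 ± 0.13, adjusted p = 0.00344), from 320.1 and 324 CPM to 233 and 200.2. At 3 weeks the P2ry6 libraries of the genotypes overlapped and the log2 difference was -0.11 ± 0.10 (adjusted p = 0.656).

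Adora3 and Entpd1 were called at 8 months and not at the younger ages, although Adora3 was also called at 4 months in TPM (limma adjusted p = 0.0341). Adora3 was at 142, 155, 138 and 159.99 CPM in WT and at 102 to 137 in SgshKO with a median of 114, so that the groups were separate by a narrow margin. It fell by 22.6% (log2 -0.37 ± 0.08 SE, edgeR adjusted p = 0.000401). Entpd1 was at 1314, 1318, 1213 and 1379 CPM in WT and at 809.9 to 1334 in SgshKO with a median of 972. Its groups overlapped, since SgshKO replicates 4 and 5 (1334 and 1228 CPM) reached into the WT range. Entpd1 fell by 20.2% (log2 -0.33 ± 0.10, adjusted p = 0.0153), a call that was lost with a Ddx3y minus Xist term for sex (adjusted p = 0.0705).

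P2rx7 stood apart from the other members at 8 months. Its level was 403, 409, 429 and 366 CPM in WT, and in SgshKO it ran from 340.2 through 384 to 416, so that the groups overlapped over most of their range. The log2 difference was -0.08 ± 0.07 (edgeR adjusted p = 0.372). In TPM, where P2rx7 is counted on the shorter transcript, the difference was -0.27 with an adjusted p of 0.0108 (limma on log2(TPM + 1)). On that scale the median of all genes moved from 0.02 to -0.14, and the calls over all genes were 2053 higher and 4066 lower, against 3090 higher and 2703 lower in the count fit. The direction of the 6 members called at 8 months was the same on either scale. At 4 months P2rx7 was lower in SgshKO by -0.26 on the log2 scale, which was not called (edgeR adjusted p = 0.108). In TPM that 4-month difference was -0.40 and was called (limma adjusted p = 0.0321). Without SgshKO 4-month replicate 1 it was -0.49 in the count fit.

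**Figure D2:**
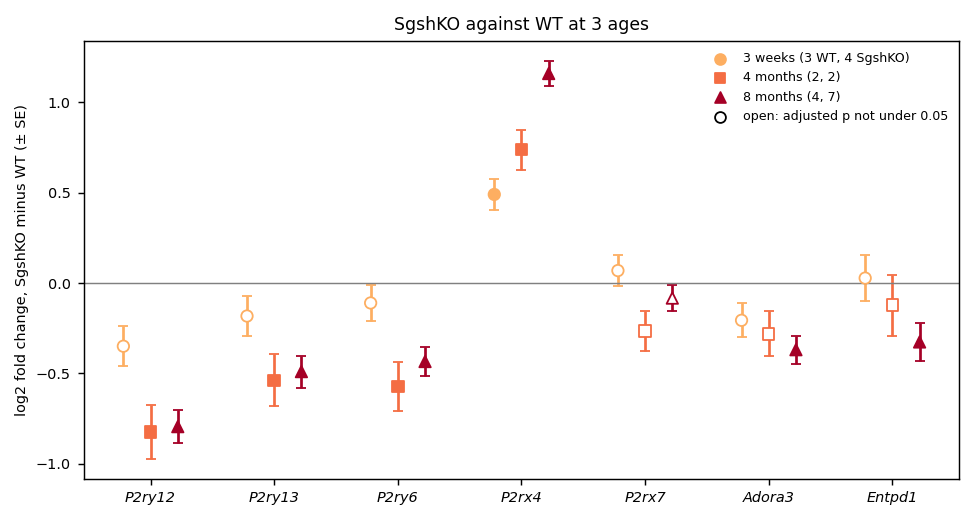
Log2 fold change of SgshKO minus WT (y axis, ± SE of the edgeR fit) for each member (x axis) at 3 weeks, 4 months and 8 months. Filled symbols have an adjusted p under 0.05, and P2rx4 is the 1 member filled at all 3 ages, at 0.49, 0.74 and 1.16.

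Markers of other cell types moved with genotype in the same libraries. At 8 months 11 of 11 neutrophil markers, 5 of 8 monocyte markers and 7 of 9 border macrophage markers were higher in SgshKO. Of astrocyte markers 4 of 8 were higher and 1 lower, and of oligodendrocyte markers 4 of 7 tested were higher. Of endothelial markers 4 of 5 tested were higher and 1 lower. Astrocyte markers summed to 288 to 403 CPM in WT and 179 to 300 in SgshKO, and endothelial markers to 62.6 to 70.0 and 37.8 to 59.2. Monocyte markers summed to 11.3 to 15.5 CPM in the WT libraries and between 69.1 and 499 in SgshKO, and border macrophage markers to 20.5 to 38.8 and 86.1 to 135. In WT at 8 months the neutrophil markers Ly6g, Elane, Retnlg and Mpo and the monocyte marker F10 were at 0. The 10 microglia markers, none of them a member, summed to 41321 to 49016 CPM in WT and 33479 to 37357 in the SgshKO libraries, with 8 lower and 1 higher. The part of these cells in the results was not tested, and in bulk RNA fewer cells of a type and less RNA per cell cannot be told apart. Without the 2 SgshKO libraries of 8 months with the most neutrophil transcript (replicates 1 and 3), 6 members were again called. P2rx4 was then at 1.15 and P2ry12 at -0.76 on the log2 scale. This alternative was chosen after the data had been seen. The SgshKO libraries kept still held 407 to 774 CPM of neutrophil markers, against 1.89 to 3.54 in WT. The fit therefore cannot show what part these cells had. At 4 months SgshKO replicates 1 and 2 held 2809 and 13938 CPM, so no fit there was free of neutrophil transcript either. Without replicate 2, P2ry13 was at -0.43 and Entpd1 at 0.07 on the log2 scale, against -0.54 and -0.12 in the full fit. All members but Entpd1 kept their direction in every fit that left out a 4-month library.

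Change with age was compared within each genotype, with shared libraries between these comparisons and those of genotype. In WT, 3 of 7 members were called between 8 months and 3 weeks, where 7.65% of all genes were. P2ry12 fell by 33.8% (log2 -0.59 ± 0.11 SE, edgeR adjusted p = 0.00106), P2ry13 fell by 24.6% (log2 -0.41 ± 0.11, adjusted p = 0.0199) and P2rx4 rose by 24.4% (log2 0.31 ± 0.08, adjusted p = 0.0213). For P2ry13 and P2rx4 each call was kept in 4 of 7 fits that left out a library, and the count was 1 without WT 3-week replicate 1 or replicate 3. At 4 months against 3 weeks P2ry13 alone was called in WT (log2 -0.55 ± 0.13, adjusted p = 0.0141, with 5.21% of all genes), a call lost without WT 3-week replicate 1 or 4-month replicate 2. Between 8 and 4 months in WT no member was called, with 5.77% of all genes called, and 1 member and 19.3% of genes at an unadjusted p under 0.05. Under DESeq2 the number of members called between 8 and 4 months in WT was also 0.

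In SgshKO, 6 of 7 members were called between 8 months and 3 weeks, with 30.6% of all genes called. P2ry12 fell by 51.4% (log2 -1.04 ± 0.09 SE, edgeR adjusted p = 4.26e-09), P2ry13 by 39.1% and P2ry6 by 26.8%, and P2rx7 and Adora3 fell by 21.2% and 20.2%. P2rx4 rose 1.98-fold (log2 0.98 ± 0.07, adjusted p = 2.05e-10). At 4 months against 3 weeks 5 members were called (32.7% of all genes), with P2ry12, P2ry13, P2ry6 and P2rx7 lower and P2rx4 higher, the last with adjusted p = 0.253 without SgshKO 4-month replicate 1. Between 8 and 4 months P2rx4 alone was called, higher by 0.64 ± 0.09 on the log2 scale (adjusted p = 5.30e-05), with 19.8% of all genes called. The dissociation response, 12 immediate early and heat shock genes, differed between ages: it summed to 19880 to 26166 CPM in WT at 4 months, against 5095 to 8011 at 3 weeks and 8616 to 10761 at 8 months. In SgshKO it ran from 5022 to 23230 at 3 weeks, the highest being replicate 1, 14696 to 16897 at 4 months and 5060 to 8508 at 8 months. Between genotypes at 3 weeks 4 of its 12 genes were higher in SgshKO, and without that replicate P2rx4 was still called. At 4 months 0 of the 12 were called between genotypes, and at 8 months 1 was higher and 3 were lower in SgshKO. Between the genotype effects at 8 months and 3 weeks, 3 of the 12 genes of this response were called, all lower. Its part in the results was not tested. Cell type markers differed between ages as well. From 3 weeks to 8 months 7 of 10 microglia markers were lower in WT, summing to 54241 to 54997 and then to 41321 to 49016 CPM, and 0 of 11 neutrophil markers were called. In SgshKO 10 of 10 microglia markers were lower (48682 to 52827 CPM at the earlier age, 33479 to 37357 at the later) and 11 of 11 neutrophil markers were higher (1.74 to 29.4 and then 407 to 5488). At 4 months against 3 weeks the counts in SgshKO were likewise 10 of 10 lower and 11 of 11 higher, and the part of these cells in the change with age was not tested.

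The ASO libraries asked what knockdown of the 3 transcription factors does to the same genes. Between ntc and PBS 0 of 7 members and 0 of 10277 genes were called in edgeR (0% of genes), with 0 members and 4.04% of genes at an unadjusted p under 0.05, and log2 differences of -0.03 to 0.05. Under DESeq2 the number of members called was also 0. The Mitf ASO against ntc called P2rx4 as higher and P2rx7 as lower, 2 of 7 members where 11% of all genes were called, and these were the 2 members without overlap, as were 7.67% of all genes. The Tfeb and Tfe3 ASOs called no member, with 0.778% and 2.16% of all genes called. At an unadjusted p under 0.05 they gave 4 and 2 members, beside 14.4% and 16.6% of genes.

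P2rx4 was at 67.0, 68.0, 67.6 and 60.98 CPM after ntc and at 69.8, 63.2, 63.5 and 65.0 after PBS. After the Mitf ASO it was at 91.0, 90.1, 85.2 and 78.6, with the lowest of these above every control library. P2rx4 rose by 30.8% (log2 0.39 ± 0.05 SE, n = 4 per group, edgeR adjusted p = 0.000140), and was higher in 4 of 4 pairs that share the number called grp in the titles. After the Tfeb ASO it was at 82.3, 77.6, 73.6 and 71.3 CPM, also above all ntc libraries, with a log2 difference of 0.21 ± 0.05 that was not called in edgeR (adjusted p = 0.0792) and was with DESeq2 (0.0316). After the Tfe3 ASO it was at 71.7, 60.3, 58.2 and 54.9 CPM, overlapping ntc, with a log2 difference of -0.11 ± 0.05 (adjusted p = 0.322).

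The ASOs differed from each other in their effect on P2rx4. Its level after the Mitf ASO exceeded that after the Tfe3 ASO by 0.50 ± 0.05 on the log2 scale (edgeR adjusted p = 1.21e-05), with 3.76% of all genes called in that comparison. After the Tfeb ASO it exceeded that after the Tfe3 ASO by 0.32 ± 0.05 (adjusted p = 0.00558, 1.62% of all genes), a call that rests on the grp term (0.188 without it). Between the Mitf and Tfeb ASOs the difference of 0.18 ± 0.05 was not called (adjusted p = 0.0736).

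P2rx7 was at 364, 391, 411 and 385 CPM after ntc and at 299, 341, 358 and 354 after the Mitf ASO, without overlap. It fell by 12.9% (log2 -0.20 ± 0.04 SE, edgeR adjusted p = 0.00485). This call was lost without the grp term (adjusted p = 0.217) and in the batch-corrected signal. P2rx7 was also lower after the Mitf than after the Tfeb ASO (log2 -0.17 ± 0.04, adjusted p = 0.0263, 3.53% of all genes called), but kept that call in 1 of 8 fits with a library left out. The remaining members after the Mitf ASO had log2 differences of -0.11 to -0.18, none called in this fit. For P2ry6 (adjusted p = 0.0505) the call depended on the setting, with adjusted p = 0.0405 under DESeq2, 0.0474 with a minimum mean CPM of 5 and 0.0286 for limma on the batch-corrected signal. P2ry13 was called in that signal too (limma adjusted p = 0.0451). The limma fits of that signal held no grp term and did not account for the correction already made. Their p-values may therefore be too small. Adora3 was called by edgeR without ntc replicate 3 (adjusted p = 0.0229). P2ry12 was at 7562, 7887, 6726 and 7561 CPM against 8610.1, 8364, 7224 and 8308 after ntc.

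**Figure D3:**
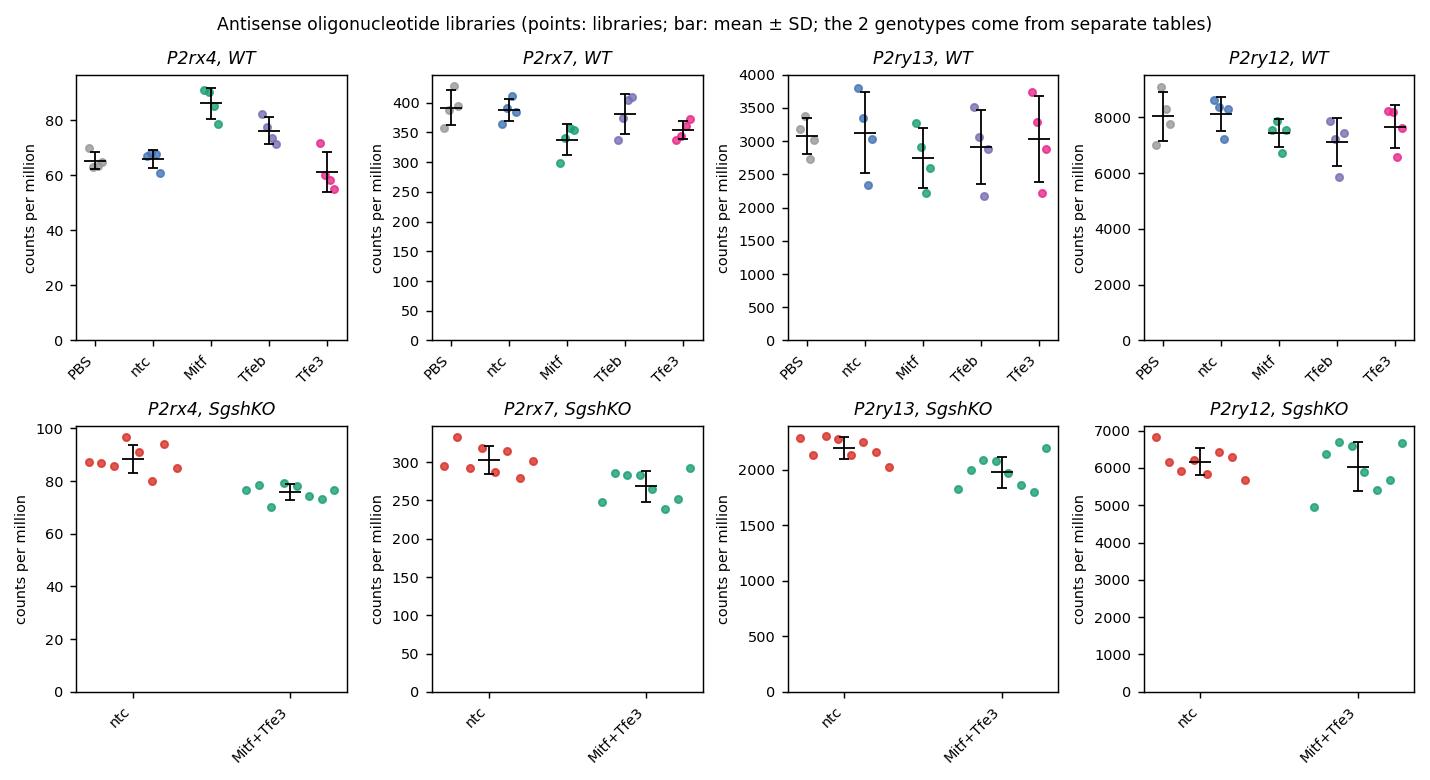
CPM (y axis, linear from 0) of P2rx4, P2rx7, P2ry13 and P2ry12 in the ASO libraries by treatment (x axis), with WT in the upper and SgshKO in the lower row, points for libraries and bars for mean ± SD. P2rx4 after the Mitf ASO in WT lies at 78.6 to 91.0 CPM, above all ntc libraries, and after the combined ASOs in SgshKO at 70.3 to 79.3, below all ntc libraries.

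In SgshKO mice the combined Mitf and Tfe3 ASOs lowered P2rx4. After ntc it was at 79.8 CPM at the lowest, 87.1 at the median and 96.7 at the highest, and after the combination at 70.3, 76.7 and 79.3. The groups did not overlap, although the highest treated and the lowest control library were close. P2rx4 fell by 14.0% (log2 -0.22 ± 0.04 SE, n = 8 per group, edgeR adjusted p = 0.00470). The call was kept in 16 of 16 fits that left out a library and was lost in the authors' batch-corrected signal (adjusted p = 0.0675). In all 3 of 7 members were called, all lower, where 9.33% of all genes were called, 4.84% higher and 4.5% lower. P2rx4 was the 1 member without overlap, beside 1.06% of all genes.

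P2rx7 and P2ry13 were the other members called after the combination. P2rx7 ran from 279 through 298 to 333 CPM after ntc and from 239 through 274 to 292 after the combination, with overlap, and fell by 11.3% (log2 -0.17 ± 0.05 SE, adjusted p = 0.0289 in edgeR). P2ry13 ran from 2026 through 2201 to 2300 CPM and from 1801 through 1985 to 2194, with overlap, and fell by 0.15 on the log2 scale (-0.15 ± 0.04, adjusted p = 0.0369). Both calls were near the threshold: P2rx7 kept its call in 9 and P2ry13 in 6 of 16 fits that left out a library, and both lost it without the grp term (0.0696 and 0.0653). P2ry12 after the combination had a log2 difference of -0.03 ± 0.06 (adjusted p = 0.774), with 4949 to 6705 CPM against 5681 to 6826.

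The response of P2rx4 thus had opposite signs in the ASO sets, 0.39 on the log2 scale after the Mitf ASO in WT and -0.22 after the Mitf and Tfe3 ASOs in SgshKO. The sets differ in genotype, in the oligonucleotides given and in the depth of knockdown, they were normalised separately, and the difference between them was not tested. Of the border macrophage markers 2 of 9 were listed in each ASO table. They summed to 44.9 to 58.0 CPM after the Mitf ASO and 30.3 to 51.0 after ntc in WT (0 of 2 called), and to 169 to 206 after the combination and 121 to 191 after ntc in SgshKO (2 of 2 called higher). Neutrophil markers were not listed in the WT table. In SgshKO 5 of 11 were listed and summed to 1.026 to 516 CPM after ntc and 0.996 to 329 after the combination, with 0 of 5 called. Microglia markers summed to 60833 to 64067 CPM after the Mitf ASO and 64457 to 67714 after ntc in WT (4 of 10 lower), and to 43946 to 50115 after the combination and 42865 to 46511 after ntc in SgshKO (3 of 10 higher). The part of these cells in the results was not tested.

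Genes next to the members were examined because reads from neighbours and overlapping genes can be confused. Adora3 lies within Tmigd3 on the same strand and ends at the same base, and Tmigd3 was also lower at 8 months (log2 -0.30 ± 0.08 SE, edgeR adjusted p = 0.00646), so that reads of these genes cannot be told apart with certainty. P2ry12 and P2ry13 lie inside Med12l, a Mediator subunit gene on the opposite strand, which was lower by -0.62 ± 0.12 at 8 months (adjusted p = 0.000162) at 65.6 CPM in SgshKO and 101 in WT. It was also lower after the Mitf ASO (log2 -0.32 ± 0.10, adjusted p = 0.0438) and after the combination (log2 -0.38 ± 0.08, adjusted p = 0.00519). The library protocol marks strand, but whether counting used it is not given in the sources used here. Camkk2, a kinase gene that ends 1432 bases beyond P2rx4 on the opposite strand, was higher at 8 months (log2 0.69 ± 0.09, adjusted p = 9.67e-07). After the Mitf ASO its log2 difference was 0.12 ± 0.09 (adjusted p = 0.407) and after the combined ASOs 0.01 ± 0.07 (adjusted p = 0.965).

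Likeness of pattern was measured by Pearson's r of log2 CPM over the 22 libraries of the age series. These libraries differ in genotype, age and depth, and such differences enter r, so that r is a description. The genes most like P2ry12 were Gpr155 (r = 0.986), Kctd12 (0.972) and the fractalkine receptor gene Cx3cr1 (0.968), and with group means removed these were 0.892, 0.681 and 0.760. Those most like P2rx4 were Ssh3 (0.965), the Fc receptor subunit gene Fcer1g (0.962) and the class I gene H2-D1 (0.961), which with group means removed had r of 0.530, 0.161 and 0.164. P2ry13 was most like Med12l (0.950), Tgfbrap1 (0.948) and Smad5 (0.948), and P2ry6 most like Tgfbrap1 (0.916), Cables2 (0.915) and Mex3a (0.913). For P2rx7 the genes were Zfp770 (0.905), Prr5 (0.895) and Ndst2 (0.887), for Adora3 Tmigd3 (0.954), Usp24 (0.905) and Cep68 (0.892), and for Entpd1 Man1a (0.849), Arnt (0.833) and Prpf4 (0.794). Between members, P2ry12 and P2ry13 had r = 0.930, and 0.738 with group means removed. P2ry12 and P2rx4 had r = -0.911, and -0.480 with group means removed. The sign turned with group means removed for P2ry12 and P2ry6 (0.807 to -0.0955) and for P2ry6 and P2rx7 (0.686 to -0.0926). It also turned for P2rx4 with P2ry6 (-0.702 to 0.443), Adora3 (-0.872 to 0.135), P2rx7 (-0.447 to 0.156) and Entpd1 (-0.379 to 0.223). The other pairs of members kept their sign, with P2ry13 and P2ry6 going from 0.847 to 0.0737.

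The rest of the purinergic pathway was followed through 7 lists with 52 genes, of which 40 were tested in the age series. At 3 weeks 2 were higher and 2 lower in SgshKO (9.03% of all genes called in either direction), at 4 months 9 and 6 (19.5%), and at 8 months 13 and 8 (40.5%), with 19 not called. By list at 8 months, 2 of 4 other P2Y receptors were higher and 1 lower, 1 of 3 other P2X receptors was lower, and 1 of 1 other adenosine receptor was higher. Of the other nucleotide-hydrolysing enzymes 3 of 7 were higher, of transport and release genes 2 of 7 were higher and 1 lower, of adenosine metabolism genes 2 of 4 were higher and 1 lower, and of receptor effectors 3 of 14 were higher and 4 lower.

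Among the receptors, P2ry2, an ATP and UTP receptor whose gene lies 32202 bases from P2ry6, was at 0 to 1.86 CPM at 8 months in WT libraries and at 5.71 to 12.7 in those from SgshKO (log2 3.39 ± 0.63 SE, edgeR adjusted p = 0.000111). P2ry14, a UDP-glucose receptor, had 0 counts in all WT libraries of 8 months and 99 counts over the 7 SgshKO libraries (edgeR adjusted p = 0.00142). Its SgshKO mean of 0.755 ± 0.425 CPM (SD) was at least 17.0-fold higher when WT is set to 3 counts over the group. Single SgshKO libraries ran from 0.138 to 1.25 CPM. P2rx1, an ATP-gated channel, was at 18.5 to 21.5 CPM in WT and fell to 2.53 to 8.16 in SgshKO (log2 -1.998 ± 0.21, adjusted p = 2.39e-08). Adora1, the A1 adenosine receptor, was at 0.884 to 4.53 CPM in WT and 4.79 to 19.4 in SgshKO (log2 1.59 ± 0.37, adjusted p = 0.00116).

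Among enzymes and carriers, the ectoenzyme Enpp1, which cleaves ATP to AMP, rose from 13.9 ± 1.23 CPM (SD, n = 4) to 49.1 ± 12.6 (n = 7) at 8 months (log2 1.82 ± 0.16 SE, edgeR adjusted p = 1.45e-09). The CD73 gene Nt5e, which makes adenosine from AMP, was at 0 to 0.354 CPM in WT and 0 to 1.80 in SgshKO (adjusted p = 0.0651). Adk, the adenosine kinase gene, rose from 2.498 to 5.01 CPM (adjusted p = 0.0108), with libraries that overlapped, and Pnp, the purine nucleoside phosphorylase gene, fell from 176 to 79.1 (log2 -1.15 ± 0.10, adjusted p = 5.74e-10). Lrrc8a, the volume-regulated anion channel gene, fell from 215 to 106 CPM (log2 -1.02 ± 0.11, adjusted p = 2.71e-08). The nucleoside carrier gene Slc28a2 had 0 counts in WT and 296 counts over the SgshKO libraries (edgeR adjusted p = 0.000799). Its SgshKO mean of 1.79 ± 1.89 CPM (SD, n = 7) was at least 40.3-fold higher by the same floor. Single SgshKO libraries ran from 0.0471 to 4.86 CPM, the lowest being close to that floor of 0.0444 CPM.

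Among effectors at 8 months, Gnas, the gene of the stimulatory G protein subunit, rose from 329 ± 33.7 CPM (SD, n = 4) to 844 ± 92.4 (n = 7), with log2 1.359 ± 0.09 SE (edgeR adjusted p = 2.81e-11). Il1b, the cytokine released through the P2rx7 pathway, rose from 7.11 to 20.4 CPM (log2 1.59 ± 0.50, adjusted p = 0.0126), with a WT library at 22.6 inside the SgshKO range. The inflammasome genes Nlrp3, Pycard and Casp1 were not called, with log2 differences of -0.02, 0.25 and 0.27. Gsdmd, the pore-forming protein cut by caspases of this pathway, fell from 180.5 to 137 CPM without overlap (log2 -0.40 ± 0.08, edgeR adjusted p = 0.000199). Il18, a cytokine matured by Casp1, fell from 30.9 to 23.8 CPM with overlapping libraries (log2 -0.37 ± 0.12, adjusted p = 0.0180). Markers of neutrophils, monocytes and border macrophages were higher in the same libraries as these pathway genes, and the part of those cells was not tested.

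**Figure D4:**
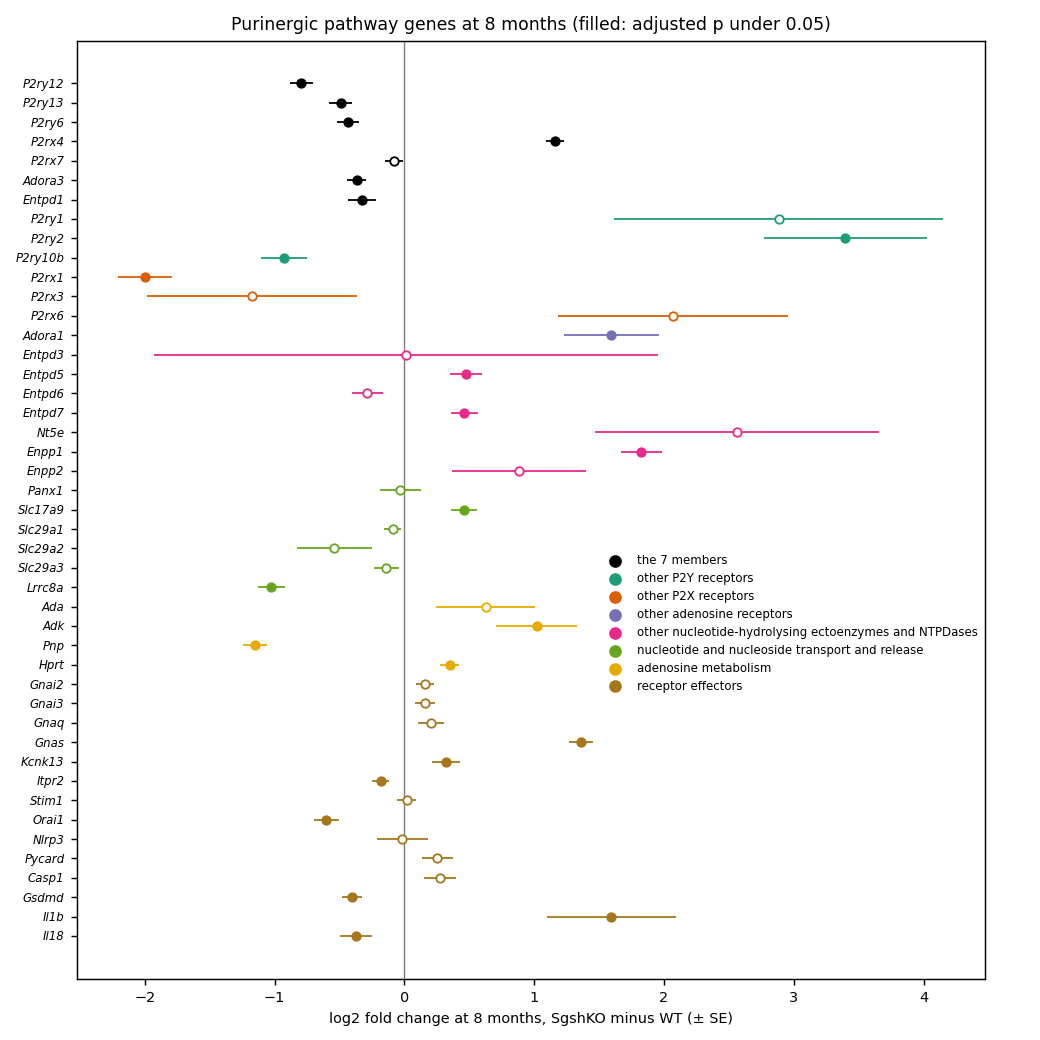
Log2 fold change of SgshKO minus WT at 8 months (x axis, ± SE) for the 7 members and the other tested pathway genes (y axis), coloured by list, with filled symbols for an adjusted p under 0.05. P2ry14 and Slc28a2, with 0 counts in WT, are left out, and P2rx1 (-1.998) and P2ry2 (3.39) mark the ends among the called genes.

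In WT 31 of the 52 were listed and tested after ASO treatment, with 2 higher (Entpd5 and Gnas) and 2 lower (P2ry10b and Orai1) after the Mitf ASO, where 11% of all genes were called. In SgshKO 33 were tested, with 3 higher (Lrrc8a, Gnai2 and Gnas) and 3 lower (P2ry2, Enpp1 and Kcnk13) after the combination, where 9.33% of all genes were called. Enpp1 fell from 47.7 to 37.9 CPM (log2 -0.33 ± 0.06 SE, edgeR adjusted p = 0.00121), P2ry2 fell from 5.08 to 3.23 CPM (log2 -0.65 ± 0.14, adjusted p = 0.00671), and Lrrc8a rose from 62.4 to 72.8 CPM (log2 0.23 ± 0.07, adjusted p = 0.0460). Gnas rose after each ASO against ntc in WT, by 0.45 ± 0.05 on the log2 scale after Mitf (edgeR adjusted p = 2.23e-05), 0.30 ± 0.05 after Tfeb (adjusted p = 0.00702) and 0.49 ± 0.05 after Tfe3 (adjusted p = 3.24e-05), the ntc libraries being shared. It also rose by 0.22 ± 0.05 after the combination in SgshKO (adjusted p = 0.00591).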

How the data were processed

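PolyA RNA-seq of sorted mouse microglia was analysed in 58 libraries. Raw counts per gene (age series, WT ASO and SgshKO ASO) and TPM for the age series were deposited by the authors, and so was a normalised, batch-corrected signal for the ASO sets whose method is not given in the sources used here. The submitters' processing notes name STAR 2.5.3a, kallisto 0.44.0, HOMER 4.11, DESeq2 1.36.0 and mm10, without roles, so deposited ASO counts may be rounded estimates. The ASO tables hold no gene with a mean count under 7.05 (WT) or 39.2 (SgshKO), while 3898 of 24940 genes in the age table are at 0.

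Counts were fitted with edgeR 4.0.16 in R 4.3.3 (TMM, filterByExpr with a minimum count of 10, quasi-likelihood F test, Benjamini-Hochberg over all genes tested, threshold 0.05), with 1 model per table. The age model held 6 groups. The ASO models also held grp, the number in the titles. In WT grp equals the replicate number: after removal of group means, same-numbered libraries had a mean r of 0.354 (-0.0333 to 0.640), others -0.117, and 20 of 20 libraries were on average most like their own number. Removal of group means largely sets the value for the others from that for the same number, so it adds no separate evidence. For PBS replicate 4 the title gives grp 4, which was used, and the column name gives grp 3 (mean r 0.429 against 0.188). The SE is the log2 fold change divided by the square root of F. CPM uses TMM-scaled library sizes. The fits were tested on simulated data.

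Alternatives were DESeq2 1.42.0, other size factors, other filters, limma 3.58.1 on log2(TPM + 1) and log2(TPM + 0.1) for genes with a mean TPM of at least 1, limma on the log2 batch-corrected signal with 1 added, a Ddx3y minus Xist term, replicate blocks, the groups alone and each library left out. Named were all members, pathway genes called at 8 months with a log2 change of at least 1, the 3 genes most like each member and the genes within 50 kb where a result turned on them. Nt5e, Nlrp3, Pycard, Casp1, Gsdmd, Il18 and the pathway genes listed by name after ASO treatment were named after their values were seen. Members and lists were chosen with earlier results of these data known.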

Additional observations from a re-analysis of the deposited data

Results flagged for a closer look

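P2ry6 in SgshKO at 8 months, replicate 3, was at 228 CPM, further below the other 6 libraries (256 to 277) than Dixon's test allows at the 95% level. P2rx4 in WT after ntc, replicate 4, was at 60.98 CPM, below the other 3 (67.0 to 68.0) by the same test. Chance gives about 1 such flag in 20 groups, and 70 sets of 4 to 8 libraries were examined with 2 flags. Without these libraries P2ry6 stayed lower in SgshKO and P2rx4 stayed higher after the Mitf ASO.

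The effect of genotype on P2rx4 differed between ages, by 0.67 on the log2 scale between 8 months and 3 weeks in a test of the interaction (edgeR adjusted p = 0.000196). It was higher in SgshKO at both ages, with every SgshKO library above every WT library of the same age.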

How the results depend on the processing

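The number of members called was 1 at 3 weeks in SgshKO against WT, and 2 under DESeq2, its size factors, no filter, either TPM scale and the 3-week groups alone, P2ry12 being the added gene. It stayed at 4 and 6 at 4 and 8 months or within 1.5 times of that under each alternative. At 4 months P2rx7 and Adora3 were added on either TPM scale, and P2ry13 was lost with the 4-month groups alone. At 8 months P2rx7 was added on either TPM scale, and Entpd1 was lost with the Ddx3y minus Xist term. Between the genotype effects at 8 months and 3 weeks it was 1, and 2 under DESeq2, no filter and either TPM scale. In WT it was 1 for 4 months against 3 weeks and 2 under DESeq2 and no filter, and 3 for 8 months against 3 weeks and 1 with the Ddx3y minus Xist term, which could not be formed in the ASO tables, where both genes are not listed, and was not run there. After the Mitf ASO it was 2, after the Tfeb ASO 0 and 1 under DESeq2. Mitf against Tfeb gave 1, with 2 under DESeq2 and 0 in the batch-corrected signal, and Mitf against Tfe3 gave 1, with 2 under DESeq2. The combination in SgshKO gave 3, with 1 in the batch-corrected signal and 1 without the grp term.

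When single libraries were left out, the counts ran from 1 to 2 at 3 weeks (2 without SgshKO replicate 2), 3 to 5 at 4 months and 6 to 6 at 8 months. They ran from 0 to 1 for the genotype effect at 4 months against 3 weeks and 1 to 2 for 8 months against 3 weeks. In WT they ran from 0 to 1 for 4 months against 3 weeks and 1 to 3 for 8 months against 3 weeks, and in SgshKO from 1 to 2 for 8 against 4 months. They ran from 0 to 1 for Mitf against Tfeb, 1 to 2 for Mitf against Tfe3 and 1 to 3 for the combination. Where 1 library was left at 4 months, it was assumed to vary like the other groups. The P2rx4 calls at 3 ages, in the interaction, after the Mitf ASO and after the combination held in every such fit.

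With the replicate number as a block in the age series, where same-numbered libraries had r of -0.171 to 0.115 and share a number alone, the counts were 1, 4 and 6 at the 3 ages and 2 in WT for 8 months against 3 weeks. Without the block in WT ASO the counts were 1 for Mitf against ntc, 0 for Mitf against Tfeb and 0 for Tfeb against Tfe3. In SgshKO ASO, same-numbered libraries had r of 0.0839 to 0.612 and 14 of 16 were most like their own number. The block there gave 2, without P2ry13 (adjusted p = 0.0584).

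The direction changed for values that were not called in the reported fit: P2rx7 at 3 weeks in TPM (-0.0193 and -0.0194), Entpd1 at 3 weeks in TPM (-0.0383 and -0.0384) and over the fits that left out a library (-0.00742, without SgshKO replicate 2, to 0.0610). The same held for Entpd1 at 4 months against WT (-0.447 to 0.0690) and in SgshKO at 4 months against 3 weeks (-0.471 to 0.0442), the higher value in each being without SgshKO 4-month replicate 2. The value of -0.471, without SgshKO 4-month replicate 1, was called (edgeR adjusted p = 0.0449). The cause of these changes was not tested. Depth did not limit the members, but P2ry14, Slc28a2, P2ry2 and Nt5e had few counts.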
